A study of Mus musculus with 6 samples.

Results

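The 10 genes described here are listed as feedback inhibitors of receptor kinase and ERK signalling. They encode the MAP kinase phosphatases Dusp4, Dusp5 and Dusp6, the Sproutys Spry1, Spry2 and Spry4, and the Sprouty-related proteins Spred1 and Spred2. The list also holds the ErbB receptor inhibitor Errfi1 (also called Mig6) and the early response gene Ier3. All 10 were taken by symbol from the 55335 gene identifiers of the deposited files, and all 10 were found. The set was chosen by the lower FPKM of Dusp6, Spry4, Errfi1 and Ier3 in the treated than in the control libraries, so the difference between the groups in any of the 10 is given as a description and not as a test. RNA was sequenced in 6 libraries of wild-type bEnd.3 cells, a mouse brain endothelial line transformed by polyomavirus middle T antigen, grown in high-glucose medium with serum. In the 3 Mito_T libraries the cells had been incubated for 24 h with mitochondria isolated from primary mouse astrocytes and taken up in 100 µl of medium, and in the 3 Ctrl libraries they had received that volume of medium without mitochondria. The study asks how astrocytes regulate the blood-brain barrier by passing on mitochondria, and the labels do not say whether the libraries of a group are separate cultures, so the spread given here may be technical.

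Growth factors that bind receptor tyrosine kinases switch on RAS, which activates the kinases RAF, MEK and ERK in turn. Active ERK induces a set of genes, many of whose products damp the same route. The DUSP proteins remove phosphate from MAP kinases, Dusp6 in the cytoplasm with a preference for ERK, Dusp5 in the nucleus with a preference for ERK, and Dusp4 in the nucleus on several MAP kinases. Sproutys and SPREDs act between the receptor and RAF, SPREDs by bringing the RAS inactivator neurofibromin to the membrane. Errfi1 binds and blocks the kinase domain of ErbB receptors. Ier3 is a short protein induced by growth factors and NF-kB that is itself an ERK substrate. It is counted among the inhibitors below as a member of the list, and whether it inhibits the route was not examined. In endothelial cells feedback inhibitors limit the responses to VEGF and FGF, and transcripts such as Dusp6 and Spry4 are widely used as a readout of ERK activity.

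The stretches that follow are the 150 bases before the annotated start of 3 of the genes that were lower with mitochondria (Dusp6, Errfi1 and Ier3) and of 1 that was not clearly so (Dusp5), shown so that the elements named below can be seen. They come from RefSeq on GRCm38.p6, all lie on the plus strand and read 5′ to 3′, and capitals mark matches to the AP-1 motif TGANTCA, the cyclic AMP response element core TGACG, the ETS core CCGGAA, the TATA box TATAAA, the CArG box bound by serum response factor and the NF-kB site, on either strand.
Dusp5, chr19:53528995-53529144: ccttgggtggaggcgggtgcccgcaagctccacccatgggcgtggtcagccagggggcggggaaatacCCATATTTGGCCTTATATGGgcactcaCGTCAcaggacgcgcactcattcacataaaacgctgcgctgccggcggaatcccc
Dusp6, chr10:99263081-99263230: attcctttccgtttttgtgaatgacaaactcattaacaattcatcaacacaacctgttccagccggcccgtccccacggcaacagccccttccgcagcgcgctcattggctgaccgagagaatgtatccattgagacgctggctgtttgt
Errfi1, the downstream of its pair of starts, chr4:150854920-150855069: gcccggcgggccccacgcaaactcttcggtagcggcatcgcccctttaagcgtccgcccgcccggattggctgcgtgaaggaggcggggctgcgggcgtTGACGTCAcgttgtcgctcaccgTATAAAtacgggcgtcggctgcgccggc
Ier3, chr17:35821563-35821712: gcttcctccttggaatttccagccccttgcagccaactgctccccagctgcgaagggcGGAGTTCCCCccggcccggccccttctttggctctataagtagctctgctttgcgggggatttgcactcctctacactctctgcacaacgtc

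Values are FPKM, which divide a gene's fragments by its transcript length and by the library's total, so levels can be set against each other between genes. The worth of 1 fragment read from low values implied about 17400000 to 21600000 fragments in the Ctrl libraries and 22100000 to 27600000 in the Mito_T libraries. By this approximate estimate the Mito_T libraries were deeper, but Ctrl replicate 3 (21600000) and Mito_T replicate 2 (22100000) were close. The part of depth in the differences was not tested. At that depth about 410 to 693 fragments stood behind a library's value for Dusp5, the lowest of the 10 genes, and 4807 to 6111 behind that for Errfi1, the highest. Most endothelial markers did not bear out the endothelial label: of 13, 7 were under 1 FPKM in all 6 libraries. Highest values were 0.068 FPKM for Cdh5 (VE-cadherin), 0.27 FPKM for Pecam1 and 0.13 FPKM for Cldn5. At 1 FPKM or more in every library were 5 markers, among them Cd34 (70.2 FPKM on average) and Eng (61.1 FPKM). The summed endothelial markers ranged from 136 to 144 FPKM in Ctrl and from 159 to 171 FPKM in Mito_T. That gap was chiefly Cd34, at 58.0 to 62.95 FPKM in Ctrl and 78.9 to 82.2 FPKM in Mito_T, while the VEGF receptors Kdr (3.65 to 4.09 and 2.70 to 3.19 FPKM) and Flt1 (9.33 to 11.1 and 7.43 to 7.94 FPKM) were lower in every Mito_T library. The 11 fibroblast and mural markers, 6 of them under 1 FPKM in every library, summed to 224 to 253 FPKM in Ctrl and 163 to 173 FPKM in Mito_T. The most abundant, Col1a1, was lower (135 to 140 FPKM in Ctrl and 81.9 to 87.5 FPKM in Mito_T), as was Mgp (12.4 to 20.0 and 6.09 to 6.90 FPKM). Pdgfra (17.9 to 19.3 and 22.2 to 23.3 FPKM) and Acta2 (1.55 to 1.76 and 1.96 to 2.39 FPKM) were higher in every Mito_T library, and Pdgfrb overlapped. Of 10 astrocyte markers Aqp4 and Sox9 were at 0 in all libraries and Gfap was at most 0.20 FPKM, and the sums overlapped, at 29.6 to 65.5 FPKM in Ctrl and 45.1 to 50.9 FPKM in Mito_T, since Gja1 alone ranged from 11.7 to 46.0 FPKM in Ctrl. Aldh1l1 was higher in every Mito_T library (0.30 to 0.45 FPKM in Ctrl and 0.97 to 1.154 FPKM in Mito_T), as was Aldoc (13.165 to 16.002 and 16.016 to 20.407 FPKM). Of 8 microglial markers P2ry12, C1qa and Ptprc were at 0 in all libraries, and the sums, 224 to 272 FPKM in Ctrl and 182 to 208 FPKM in Mito_T, were nearly all Tmem119. The part of these marker differences in the results was not tested, and in such bulk samples fewer cells of a type and less RNA per cell cannot be told apart.

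After 24 h with mitochondria the inhibitors split into 5 genes whose Mito_T libraries all lay below every Ctrl library (Ier3, Spry4, Errfi1, Dusp6 and Spry2) and 5 whose groups overlapped (Dusp4, Spry1, Dusp5, Spred2 and Spred1). The differences were modest, from 1.45-fold lower for Ier3 to 1.18-fold lower for Spry2 among the first 5. All 10 genes passed the filter on low values (at least 1 FPKM in at least 3 libraries), and 9 of the 10 had a log2 change below 0, against 52.0% of the 12639 genes tested. The median log2 change, Mito_T minus Ctrl on the log2(FPKM + 1) scale, was −0.19 over the 10 genes and −0.01 over all tested genes. Groups did not overlap, with Mito_T lower, in 11.4% of all tested genes (1439 genes), and with Mito_T higher in 1216 of the 12639. In limma (trend and robust options, Benjamini-Hochberg adjustment over all genes tested, adjusted p under 0.05), 4 of the 10 genes were called, all lower, where 0.649% of tested genes were called lower and 1.12% in either direction. Those 4 are the genes the set was built around, so the count follows from the choice. The median of the 10 genes, their share below 0 and the number without overlap are shaped by the same choice. Of the genes without overlap, only Spry2 lies outside those 4. Outside the 4, the log2 changes were −0.23 (Spry2), −0.14 (Dusp4), −0.09 (Spry1), −0.04 (Dusp5), −0.04 (Spred2) and 0.01 (Spred1).

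**Figure D1:**
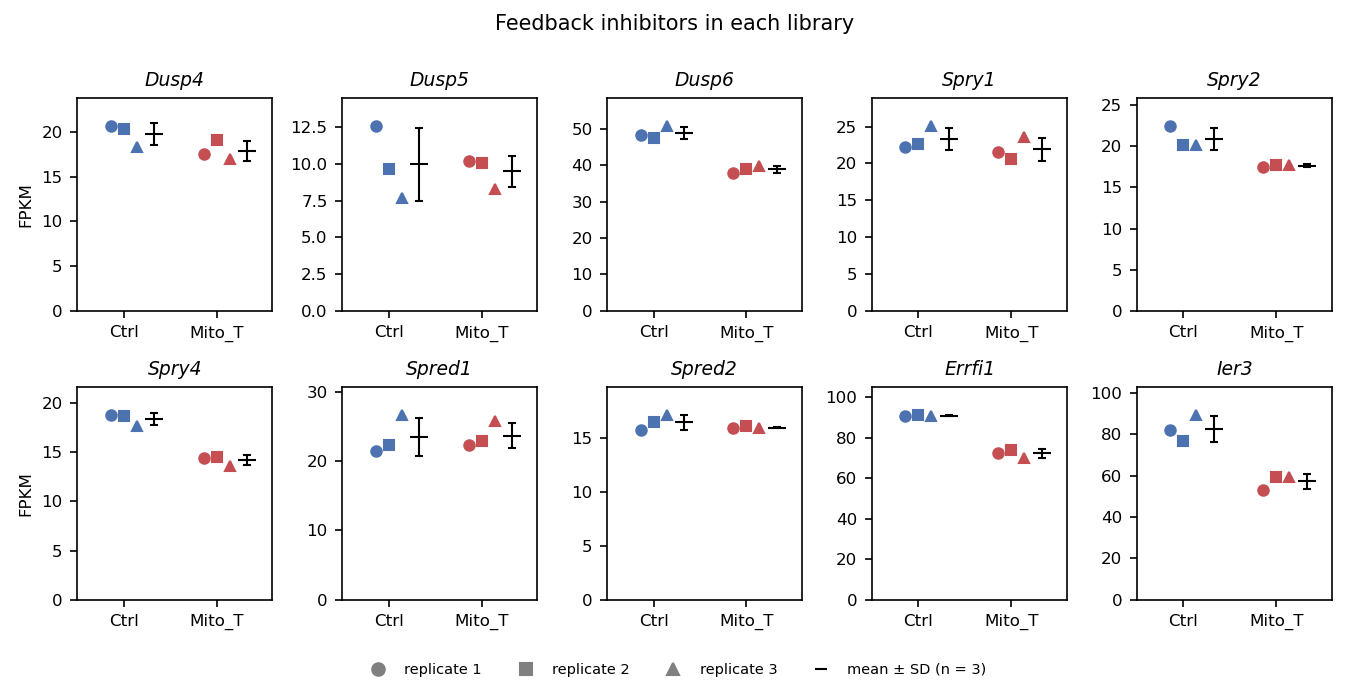
FPKM of the 10 feedback inhibitors in each of the 3 Ctrl (blue) and 3 Mito_T (red) libraries, with marker shape for the replicate number and the black bar for the mean ± SD. The Mito_T points lie below all Ctrl points for Dusp6, Spry2, Spry4, Errfi1 and Ier3, as in Errfi1 with 90.8 to 91.4 against 70.0 to 74.2 FPKM, and overlap them for the other 5 genes.

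Among the phosphatases, Dusp6 was the most abundant and the 1 whose groups separated. Dusp6 (ENSMUSG00000019960, chromosome 10, 99263231 to 99267489) had 48.3, 47.6 and 50.8 FPKM in Ctrl replicates 1 to 3 and 37.9, 39.0 and 39.8 FPKM in Mito_T replicates 1 to 3. The lowest Ctrl library was 7.82 FPKM above the highest Mito_T library, and the means, 48.9 ± 1.68 and 38.9 ± 0.942 FPKM (SD, n = 3), differed 1.26-fold, a log2 change of −0.32 (SE 0.05). Dusp4 (ENSMUSG00000031530, chromosome 8, 34807297 to 34819894) had 20.7, 20.3 and 18.3 FPKM in Ctrl and 17.5, 19.1 and 16.9 FPKM in Mito_T. Its groups overlapped through Ctrl replicate 3 and Mito_T replicate 2, and its log2 change was −0.14 (SE 0.07). Dusp5 (ENSMUSG00000034765, chromosome 19, 53529109 to 53542431) was the least even gene of the 10, with 12.6, 9.62 and 7.67 FPKM in Ctrl and 10.2, 10.04 and 8.26 FPKM in Mito_T. The Ctrl libraries of Dusp5 enclosed all Mito_T libraries, and the log2 change was −0.04 with an SE of 0.16. The 3 phosphatases summed to 76.8 to 81.5 FPKM in Ctrl and to 65.0 to 68.1 FPKM in Mito_T, and most of that gap was Dusp6, whose mean differed by −10.0 FPKM.

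The Sproutys were expressed at like levels in control cells but did not differ alike between the groups. Spry4 (ENSMUSG00000024427, chromosome 18, 38586247 to 38601415) had 18.8, 18.7 and 17.6 FPKM in Ctrl and 14.4, 14.5 and 13.7 FPKM in Mito_T. The groups were 3.09 FPKM apart at their nearest points, and the means, 18.4 ± 0.641 and 14.2 ± 0.487 FPKM (SD, n = 3), differed 1.29-fold, a log2 change of −0.35 (SE 0.05). Spry2 (ENSMUSG00000022114, chromosome 14, 105891947 to 105896819) had 22.5, 20.1 and 20.1 FPKM in Ctrl and 17.4, 17.7 and 17.8 FPKM in Mito_T. Its Mito_T libraries were close together (SD 0.198 FPKM), its Ctrl spread came from replicate 1, and its log2 change of −0.23 (SE 0.06) was not called in limma. Spry1 (ENSMUSG00000037211, chromosome 3, 37639947 to 37644598) had 22.2, 22.7 and 25.1 FPKM in Ctrl and 21.5, 20.6 and 23.6 FPKM in Mito_T. Replicate 3 was the highest Spry1 library of both groups, so that Mito_T replicate 3 lay above Ctrl replicates 1 and 2, and the log2 change was −0.09 (SE 0.07). The 3 Sproutys summed to 61.5 to 63.5 FPKM in Ctrl and 52.9 to 55.0 FPKM in Mito_T.

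Neither SPRED gene separated the groups. Spred1 (ENSMUSG00000027351, chromosome 2, 117121374 to 117182279) had 21.4, 22.4 and 26.7 FPKM in Ctrl and 22.4, 23.0 and 25.8 FPKM in Mito_T, with replicate 3 again highest in both. Its log2 change of 0.01 (SE 0.10) was the 1 value of the 10 above 0. Spred2 (ENSMUSG00000045671, chromosome 11, 19924375 to 20024026) had 15.7, 16.5 and 17.2 FPKM in Ctrl and 15.9, 16.1 and 15.9 FPKM in Mito_T, all 3 Mito_T values within the Ctrl range, with a log2 change of −0.04 (SE 0.05). The summed SPREDs were at 39.97 ± 3.47 FPKM in Ctrl and 39.7 ± 1.80 FPKM in Mito_T (SD, n = 3). An SE of 0.10 leaves room for a difference in Spred1 of the size seen in Dusp4, so these values do not show that the SPREDs were alike in both groups.

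Errfi1 and Ier3, which act outside the phosphatase and Sprouty families, were the most abundant of the listed genes and showed the widest gaps in FPKM. Errfi1 (ENSMUSG00000028967, chromosome 4, 150853919 to 150868892) had 90.8, 91.4 and 90.8 FPKM in Ctrl, a spread of 0.337 FPKM (SD), and 72.8, 74.2 and 70.0 FPKM in Mito_T. The groups stood 16.5 FPKM apart at their nearest points, and the log2 change was −0.33 (SE 0.05), 1.26-fold lower with mitochondria. Ier3 (ENSMUSG00000003541, chromosome 17, 35821684 to 35822923) had 82.1, 76.8 and 89.4 FPKM in Ctrl and 53.2, 59.1 and 59.3 FPKM in Mito_T. Its nearest libraries were 17.5 FPKM apart, and its log2 change of −0.52 (SE 0.07), 1.45-fold lower, was the furthest from 0 of the 10 genes.

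The calls of these genes rested on all 6 libraries. With any 1 library left out, Dusp6, Spry4, Errfi1 and Ier3 all lost their call, with 0 members called in each of the 6 fits and limma adjusted p-values of these 4 genes between 0.0550 (Ier3 without Ctrl replicate 3) and 0.197 (Dusp6 without Mito_T replicate 1). The sizes moved less: over the same 6 fits the log2 change ran from −0.58 to −0.47 for Ier3, −0.38 to −0.32 for Spry4, −0.35 to −0.30 for Errfi1, −0.34 to −0.30 for Dusp6 and −0.26 to −0.18 for Spry2. Dusp5 went from −0.20 without Ctrl replicate 3 to 0.12 without Ctrl replicate 1, and Spred1 from −0.05 to 0.11, so neither gene had a stable sign.

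**Figure D2:**
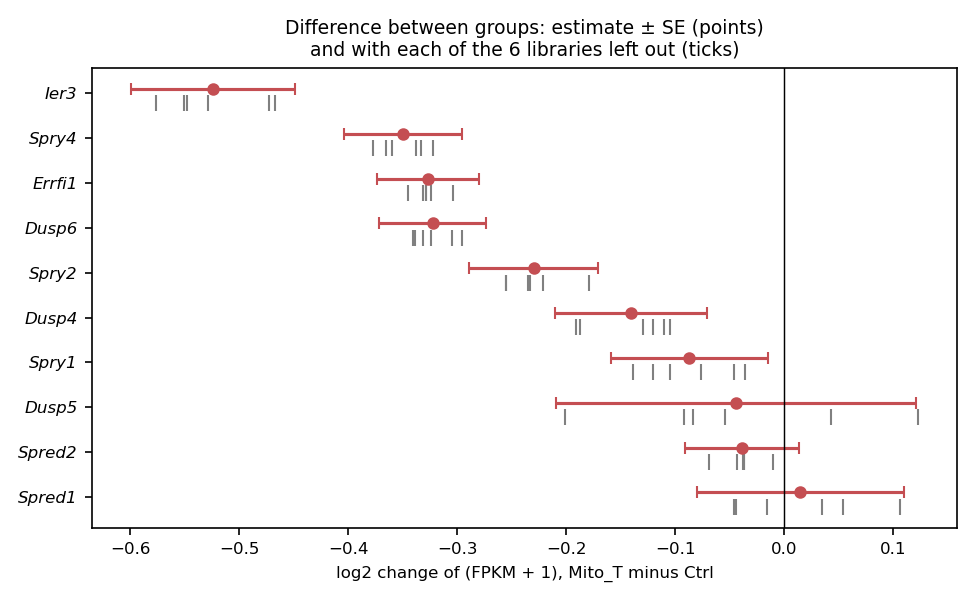
Log2 change of FPKM + 1 (x axis, Mito_T minus Ctrl) for each inhibitor, with points and bars for the estimate ± SE from all 6 libraries and grey ticks for the estimates with each library left out. Ier3 is furthest from 0 at −0.52, Spry4, Errfi1 and Dusp6 lie between −0.35 and −0.32, and the ticks of Dusp5 and Spred1 fall on both sides of 0.

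The order of the 10 levels was largely shared by the groups. In Ctrl, Errfi1 (91.0 FPKM on average), Ier3 (82.8 FPKM) and Dusp6 (48.9 FPKM) each lay above the next without overlap. The 5 genes from Spred1 (23.5 FPKM) through Spry1, Spry2 and Dusp4 to Spry4 (18.4 FPKM) overlapped with their neighbours, and Spred2 (16.5 FPKM) and Dusp5 (9.96 FPKM) came below without overlap. Errfi1 ranked above 96.0% of tested genes, Ier3 above 94.9% and Dusp6 above 90.9%, whereas Dusp5 ranked above 58.7%. In Mito_T the first 5 places and the last were held by the same genes, but Spry4 lay below Spred2. The Spry4 to Spred2 ratio was 1.19, 1.13 and 1.03 in Ctrl replicates 1 to 3 and 0.906, 0.905 and 0.856 in Mito_T replicates 1 to 3. This pair was picked out once its values were known.

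**Figure D3:**
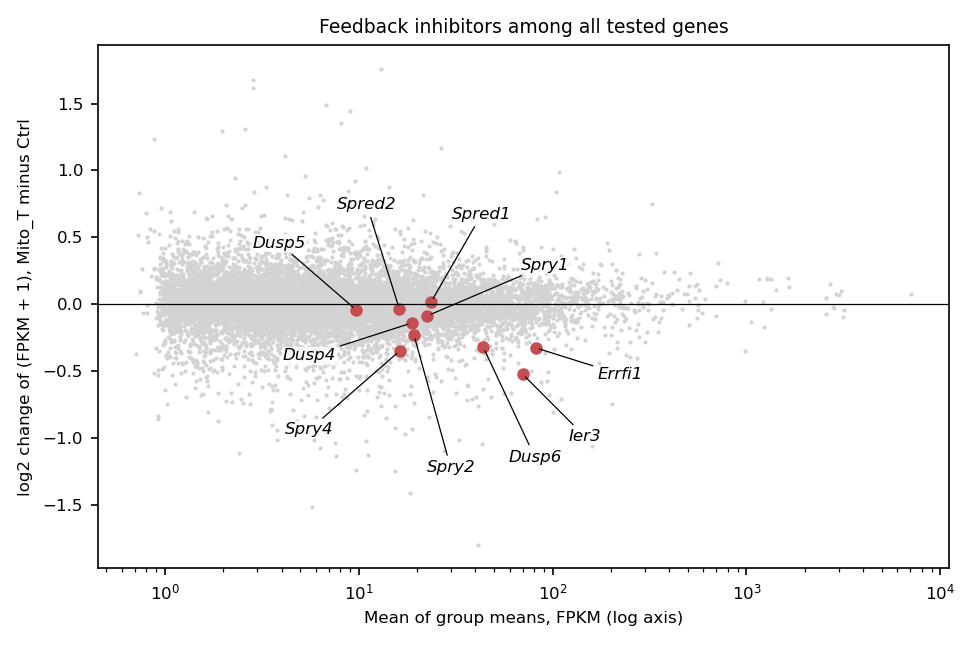
Mean level in FPKM (x axis, log scale) against log2 change of FPKM + 1 (y axis) for the 12639 tested genes (grey) and the 10 inhibitors (red, named). Errfi1, Ier3 and Dusp6 are the most abundant of these 10 genes and, with Spry4, lie lowest among them, between −0.52 and −0.32.

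Other transcripts that ERK signalling induces included falls as well. Their list was drawn up with earlier results of these data known, so its counts are a description and not independent of the values. Of 22 listed genes 18 were tested, and 3 fell and none rose in limma, with 14 of 18 log2 changes below 0 and a median of −0.16. Over all tested genes limma called 0.649% lower, 52.0% of log2 changes were below 0 and the median was −0.01. At an unadjusted p under 0.05 there were 10 lower and 1 higher, where 13.9% of all tested genes passed that mark in either direction. Of the 12639 tested genes, 925 were lower and 832 higher at that mark. Fos and Fosl1, which form AP-1 with JUN proteins, went from 3.38 ± 0.169 to 2.09 ± 0.156 FPKM and from 7.92 ± 0.0943 to 5.48 ± 0.533 FPKM (SD, n = 3), and the zinc finger factor Egr1 from 23.3 ± 4.49 to 11.3 ± 1.52 FPKM (limma adjusted p 0.0324, 0.0437 and 0.0461). In all 3 genes every Mito_T library lay below every Ctrl library, and groups failed to overlap in this direction in 10 of the 18 genes, against the 11.4% of all tested genes given above. With 1 library left out, 0 or 1 of these genes were called, the 1 being Egr1 without Ctrl replicate 3. The other 7 genes with every Mito_T library below every Ctrl library, named after their values were seen, were not called. Plaur, which encodes the urokinase receptor, went from 7.51 ± 0.430 to 5.81 ± 0.138 FPKM (limma adjusted p = 0.0730). The early response gene Ier2 went from 23.0 ± 4.74 to 13.96 ± 2.37 FPKM, the AP-1 gene Junb from 23.7 ± 2.07 to 17.8 ± 1.89 FPKM, Maff, a basic leucine zipper factor, from 9.43 ± 0.848 to 7.53 ± 0.504 FPKM and Mcl1, which protects cells from apoptosis, from 34.5 ± 0.851 to 31.8 ± 0.702 FPKM (limma adjusted p 0.151, 0.136, 0.179 and 0.338). Etv5, an ETS factor, went from 24.8 ± 0.993 to 21.3 ± 0.272 FPKM (limma adjusted p = 0.132) and Phlda1, an early response gene, from 31.7 ± 1.29 to 26.3 ± 1.33 FPKM (limma adjusted p = 0.116). Outside these, Etv4, another ETS factor, was level at 12.9 ± 0.804 and 12.8 ± 0.370 FPKM, and Ccnd1, which encodes cyclin D1, was 1 of 3 genes whose Mito_T libraries all lay above every Ctrl library, at 33.9 ± 0.490 and 38.2 ± 0.524 FPKM (limma adjusted p = 0.151).

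The ligands that start the route held no called gene. Of 25 listed ligands 18 were tested, limma called 0, and at an unadjusted p under 0.05 there were 2 lower and 2 higher, against the 13.9% of all tested genes given above. The list's median log2 change was −0.03. Ereg, which encodes the ErbB ligand epiregulin, had 4.44, 5.46 and 5.35 FPKM in Ctrl and 3.61, 3.14 and 3.11 FPKM in Mito_T, without overlap (log2 change −0.50, SE 0.09, limma adjusted p = 0.0661). Pdgfc, a ligand of PDGF receptors, was at 2.80 ± 0.448 and 3.69 ± 0.226 FPKM, and Gas6, the ligand of the receptor Axl, was abundant at 1534 ± 66.9 and 1755 ± 63.8 FPKM (limma adjusted p 0.246 and 0.224).

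The receptors that these cells expressed were chiefly the collagen receptors Ddr2 (86.9 ± 10.4 FPKM in Ctrl) and Ddr1 (56.7 ± 3.35 FPKM), the PDGF receptor Pdgfrb (59.8 ± 10.6 FPKM), the ephrin receptor Ephb4 (54.4 ± 3.74 FPKM) and Axl (52.1 ± 5.48 FPKM), named for their levels once these were known. Of 27 listed receptor tyrosine kinases 17 were tested and limma called 0. At an unadjusted p under 0.05, 4 were lower and 3 higher, where 13.9% of all tested genes passed in either direction. Fgfr1 was at 6.70 ± 0.376 and 5.08 ± 0.364 FPKM, Flt1, a VEGF receptor, at 10.04 ± 0.932 and 7.75 ± 0.278 FPKM, and Pdgfra at 18.4 ± 0.756 and 22.6 ± 0.587 FPKM (limma adjusted p 0.0917, 0.114 and 0.0702). In each of the 3 the groups did not overlap, as in 1439 (lower) and 1216 (higher) of all 12639 tested genes. As the partners of Errfi1, the ErbB receptors were mostly low: Egfr averaged 0.016 FPKM in Ctrl and 0.0095 FPKM in Mito_T, while Erbb2, which has no ligand of its own, was at 14.1 ± 0.685 and 13.7 ± 0.450 FPKM (limma adjusted p = 0.824). Both receptors were named once their values were known.

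Between the receptors and ERK, 1 gene of 29 tested was called, against 1.12% of all tested genes in either direction. The groups overlapped for each of the RAF and MEK genes. At an unadjusted p under 0.05 there were 2 lower and 2 higher, against 13.9% of all tested genes. Groups did not overlap in 3 genes with Mito_T lower and 2 with Mito_T higher, as in 1439 and 1216 of all 12639 tested genes. The adaptor Crk had 25.9, 27.0 and 28.3 FPKM in Ctrl and 10.1, 8.77 and 9.68 FPKM in Mito_T (log2 change −1.41, SE 0.07, limma adjusted p = 0.00116), and it was called in all 6 fits without a library. Gab2, a docking protein, was at 2.43 ± 0.1002 and 3.13 ± 0.139 FPKM and the small GTPase Rras at 33.7 ± 3.97 and 39.97 ± 0.702 FPKM (limma adjusted p 0.134 and 0.261). Mapk3, which encodes ERK1 and was named after its values were seen, was at 114 ± 3.76 and 124 ± 4.93 FPKM (limma adjusted p = 0.408). The list's median log2 change was −0.03. The adaptor Grb2 had 21.8, 21.7 and 47.3 FPKM in the Mito_T libraries against 43.8 to 49.5 FPKM in Ctrl, and it was called lower only without Mito_T replicate 3, which made 2 calls in that fit.

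Inhibitors outside the 10 genes did not lie to 1 side. Of 30 listed, 29 matched the annotation and 24 were tested, and limma called 0. At an unadjusted p under 0.05 there were 4 lower and 1 higher, against 13.9% of all tested genes in either direction. The median log2 change was 0.00. Socs3, which inhibits cytokine receptor kinases, had 25.9, 21.8 and 23.2 FPKM in Ctrl and 32.2, 30.7 and 32.3 FPKM in Mito_T (log2 change 0.41, SE 0.07, limma adjusted p = 0.0570). Trib1, a pseudokinase, had 13.8, 13.2 and 11.7 FPKM in Ctrl and 9.31, 9.75 and 9.48 FPKM in Mito_T (log2 change −0.40, SE 0.07, limma adjusted p = 0.0626). Neither gene's groups overlapped, and limma called Socs3 without Ctrl replicate 1 and Trib1 without Ctrl replicate 3. Erf, a repressor that ERK phosphorylates, was at 18.9 ± 0.192 and 16.8 ± 0.543 FPKM (limma adjusted p = 0.208). The phosphatase Dusp1, named after its values were seen, was at 17.8 ± 4.62 and 10.8 ± 3.22 FPKM with overlapping groups (limma adjusted p = 0.251), and the third SPRED gene, Spred3, was level at 7.48 ± 0.547 and 7.44 ± 0.209 FPKM.

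**Figure D4:**
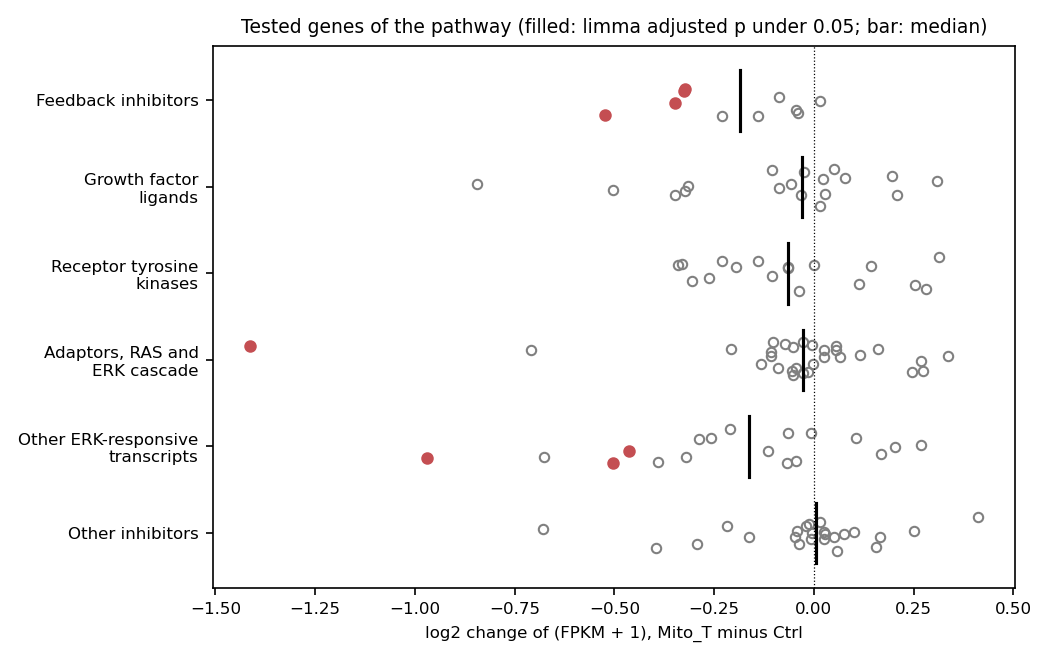
Log2 change of FPKM + 1 (x axis, Mito_T minus Ctrl) for each tested gene of 6 lists, filled red where limma's adjusted p was under 0.05, with a bar at the list's median. The medians are −0.19 for the feedback inhibitors, −0.16 for other ERK-responsive transcripts and between −0.07 and 0.00 for the other lists, and the far point at −1.41 is Crk. The feedback inhibitors include Dusp6, Spry4, Errfi1 and Ier3, for whose falls the set was chosen, so their median is not to be ranked against the others. The other lists, that of ERK-responsive transcripts included, were drawn up with earlier results of these data known. Their medians are a description too, and are not to be ranked against each other.

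Of the 7 short motifs searched in the promoters of the inhibitors, the GC box was the 1 found in most of them. RefSeq windows from 250 bases before to 50 bases after a start were found for 8 of the 10 genes, 9 windows in all because Errfi1 has a pair of starts. Dusp5 alone held the CArG box, and it held 2 of them end to end, 82 to 63 bases before the start in the stretch shown above. At least 2 CArG boxes occurred in 6 of the 32851 windows of all genes, among them that of Srf, which encodes the factor that binds the box, and at least 1 in 1.63% (1.21% of the windows of tested genes). The TGACG core was found in 3 windows, of Dusp5, Spred2 and Errfi1, against 20.8% of all windows and 31.7% of those of tested genes. In Errfi1 it was matched on both strands as a palindrome, which 1.79% of all windows and 3.09% of those of tested genes hold, close to a TATA box (13.6% and 6.89%). The NF-kB site was found in Ier3 (8.46% of all windows and 10.5% of those of tested genes), where it overlaps a GC box at its edge, the ETS core in Spry2 (14.9% and 28.4%) and TGANTCA in none (7.81% and 5.00%). The GC box GGGCGG, not capitalised above, was found in 6 of the 9 windows, against 35.7% of all windows and 64.2% of those of tested genes. The Dusp6 window held none of the motifs searched. Of the 4 genes without overlap that had a window (Ier3, Errfi1, Dusp6 and Spry2), only Errfi1 and Ier3 shared a motif, the GC box. Spry4 had no window. Whether any of these elements bears on the differences between the groups was not tested.

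The transcripts differed in their 3′ ends. Ier3 had the shortest 3′ untranslated region of the 10, 613 bases, and 5 copies of the AU-rich pentamer ATTTA in it, a density of 8.16 per kilobase that lay above 98.9% of the 10610 tested genes with such a region of at least 100 bases, whose median was 1.38 per kilobase. Such pentamers are a feature of short-lived transcripts. Dusp6 had 1 pentamer in 1190 bases and Dusp5 1 in 1109 bases, while Errfi1 had 4 in 1390 bases, Spry4 7 in 3559 bases and Spred1 12 in 4330 bases. Spred1 and Spry4 had the most pentamers by count, but by density Errfi1 (2.88 per kilobase) lay above both (2.77 and 1.97 per kilobase). A link between pentamers and the differences between the groups was not tested. Read assignment between members was not at issue, since 8 of the 10 genes shared none of their 31-base words with another gene, Spry2 shared 0.878% (with Yod1) and Spred2 4.20% (chiefly with Gm14612). Annotated genes on the opposite strand overlap Dusp5, Spry1, Spry4 and Errfi1, and none of these reached 1 FPKM in any library.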

How the data were processed

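The authors deposited 1 text file per library with 1 value for each of 55335 Ensembl mouse identifiers, of which 55154 matched GENCODE M21 (GRCm38). The deposited values were read as FPKM. No unit stands in the headers, and FPKM was inferred because the values are not whole and sum to 281433 to 297838 per library. FastQC 0.11.5, STAR 2.5.3a and StringTie 1.3.1c with GRCm38 (mm10) are named, per the submitters' processing notes, and their settings, annotation and use of strand are not given in the sources used here.

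The fit used limma 3.58.1 (R 4.3.3) with group as its 1 term. It was made on log2(FPKM + 1), a scale that shrinks the change of low genes, over the 12639 genes that reached 1 FPKM in 3 or more libraries. The code was tested on simulated data. Fragment numbers were estimated from the steps between low FPKM of genes with 1 transcript, multiplied by the longest annotated transcript, and are approximate. The members and the lists of ligands, receptors, cascade genes, ERK-responsive transcripts, other inhibitors and cell type markers were chosen with earlier results of these data known. The rule for names took all members, every called gene of a list and, in lists with fewer than 3 calls, the 3 smallest p-values. Other settings were omission of each library, a replicate block, plain empirical Bayes, TPM, quantile normalization, unweighted TMM scaling, a minimum mean of 5 FPKM, no filter, and pseudocounts of 0.1 and 0.01. The set of RefSeq windows used here held none for Dusp4 and Spry4.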

Additional observations from a re-analysis of the deposited data

How the results depend on the processing

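Of the 15 other settings, pseudocounts of 0.1 and 0.01 and a mean of at least 5 FPKM kept the calls of Dusp6, Spry4, Errfi1 and Ier3, while TMM scaling and TPM lost Dusp6. Quantile normalization left 2 members called (Ier3 and Errfi1), plain empirical Bayes 1 (Ier3), no filter 0, and omission of 1 library 0 to 0. All genes called numbered 141, 13 with no filter and 15 to 84 with 1 library left out. ERK-responsive transcripts called numbered 0 with no filter and 0 to 1 with 1 library left out, and the adaptor and cascade list had 1 to 2. Other inhibitors called were 1 with quantile normalization (Socs3), 2 with TPM (Socs3 and Trib1) and 0 to 1 with 1 library left out. No setting moved the median of all genes beyond −0.01 to 0.00, and the members' median stayed between −0.23 and −0.15.

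The replicate numbers were not shown to pair the libraries: same-numbered deviations from the group means correlated at 0.102, 0.0463 and 0.3005 across genes, and Ctrl replicate 2 correlated best with Mito_T replicate 1. The replicate 3 libraries did go together, since Ctrl replicate 3 correlated at −0.203 and −0.132 with Mito_T replicates 1 and 2. With the replicate number as a block, 56 genes were called, with 0 members, 2 ERK-responsive transcripts (Egr1 and Ier2) and 1 other inhibitor (Dusp1).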
